A study of Mus musculus with 18 samples.

Results

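Matrix metalloproteinases (MMPs), the ADAM and ADAMTS proteinases and the tissue inhibitors of metalloproteinases (TIMPs) were followed through 3 sources of mouse osteoblasts. The genes were found by symbol alone, as Mmp, Timp, Adam or Adamts followed by a number and with a closing a or b allowed for Mmp and Adam. In all, 68 of the 20202 gene symbols in the 3 count tables fitted: 23 Mmp, 4 Timp, 22 Adam and 19 Adamts genes. The table of fresh bone listed 60 of them among 17173 genes, the table of bone chips 63 among 16966 and the table of embryonic stem cells 67 among 19781, and 57 were listed in all 3 tables.

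Poly-A RNA was sequenced from 6 cell populations with 3 libraries each, all from Col2.3GFP mice or embryonic stem cells (ESCs) that carry the same transgene, in which a 2.3 kb fragment of the *Col1a1* promoter drives green fluorescent protein (GFP) in maturing osteoblasts. Brightly fluorescent GFP+ (hi) cells sorted from fresh long bone were set against GFP- cells of fresh bone, which are a mixed population. The labels do not state that both came from the same animals. GFP+ (hi) cells of cultured bone chips under osteogenic differentiation were likewise set against GFP- cells of the cultures. GFP+ (hi) osteoblasts differentiated from ESC (ESC-OB) were set against ESC, which were taken as undifferentiated from their titles although a treatment label names osteogenic differentiation for them too. Age, sex and strain are not in the labels. Nor do they state that replicates are different animals or cultures, and a p-value here reflects no more than the spread among these libraries, which may be technical. Cells with dim GFP were not analysed here.

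Library totals ran between 21425212 and 43874837 counts for bone GFP+ (hi) cells and between 5482065 and 6468750 for bone GFP- cells. They were 13228266 to 15221973 in chip GFP+ (hi) cells and 9829832 to 17553194 in chip GFP- cells, and 20680956 to 26601417 in ESC-OB and 4920977 to 21215099 in ESC. Of 10 osteoblast markers, 10 were higher in GFP+ (hi) cells of bone and 10 in those of bone chips, and 6 of the 7 that could be tested were higher in ESC-OB. There *Alpl* was lower (log2 fold change -3.09), and *Bglap*, *Bglap2* and *Sp7* were too low to test, with 33, 21 and 152 counts over the 3 ESC-OB libraries. ESC-OB replicate 1 stood below the other ESC-OB libraries, with 2970 CPM of *Col1a1* beside 7300 and 5560 CPM and 0.587 CPM of *Ibsp* beside 1380 and 243 CPM. ESC-OB also carried epithelial RNA, with 6 of 6 epithelial markers higher. Their sums were 3280 to 4800 CPM, against 98.5 to 111 CPM in ESC, where 1 was at 0. The part of these markers in the members higher in ESC-OB was not tested. The bone GFP- cells carried much cartilage RNA: 7 chondrocyte markers together made 1710 to 4210 CPM (the count as a share of the scaled library total) in bone GFP+ (hi) cells, against 94800 to 194000 CPM in bone GFP- cells, with no marker at 0 in either, and 7 of 7 were lower in GFP+ (hi) cells. Markers of pluripotent cells ran the other way, with 5 of 5 tested higher in bone GFP+ (hi) cells at sums of 14.6 to 18.1 CPM, against 0.114 to 0.33 CPM in bone GFP- cells, where 3 of the 6 were at 0 and none in GFP+ (hi) cells. *Pou5f1* had 3.46, 3.35 and 4.43 CPM in bone GFP+ (hi) libraries, against 0, 0.114 and 0 CPM in bone GFP- libraries, and the part of these markers in the bone results was not tested. Counts of 4 chromosome Y genes were 6, 913 and 9 in bone GFP+ (hi) libraries, against 727, 1167 and 625 in bone GFP- libraries (the sums over the 4 genes), so the bone libraries were not alike in chromosome Y RNA, and its part in the bone results was not tested. In sorted bulk cells, fewer cells of a type and less RNA per cell cannot be told apart.

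MMPs, ADAMs and ADAMTS enzymes are zinc-dependent endopeptidases of the metzincin clan that are made as inactive proenzymes and released by removal of a prodomain. MMPs cleave collagens and other matrix proteins, ADAMs are mostly membrane-bound and shed the outer parts of other membrane proteins, and ADAMTS enzymes are secreted and trim procollagens or cleave the large proteoglycans. TIMPs bind the active sites of these enzymes and hold them in check. In bone, osteoblasts and osteocytes use them to process the collagen they secrete, to clear the unmineralized matrix before resorption and to remodel the matrix around themselves.

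In fresh bone more of these genes were higher than lower in GFP+ (hi) cells, in bone chips the calls were split, and in ESC-OB most were higher than in ESC. Of the 43 members with enough counts to test in bone, 20 were higher and 7 lower in GFP+ (hi) cells (edgeR quasi-likelihood test, Benjamini-Hochberg adjusted p under 0.05 over all genes), where 19.5% of all 12559 genes tested were higher and 22.1% lower. Of 43 members tested in bone chips, 14 were higher and 17 lower in GFP+ (hi) cells, beside 20.4% and 23.1% of all 12841 genes. Of 53 members tested in the ESC comparison, 39 were higher and 6 lower in ESC-OB, beside 43.0% and 34.7% of all 15417 genes. Without bone GFP+ (hi) replicate 3, which was low in several members, bone had 21 higher and 7 lower, and without chip GFP- replicate 2, which was rich in macrophage markers, bone chips had 13 higher and 18 lower. Without chip GFP+ (hi) replicate 1 bone chips had 9 higher, and without ESC replicate 2 or ESC-OB replicate 3 the ESC comparison had 3 lower.

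The median log2 fold change of the members tested was 0.94 in bone, against -0.00 over all genes tested, and -0.15 in bone chips, against -0.04. It was 3.13 in the ESC comparison (3.10 with the 9 members that had no count in ESC placed at their lower bounds), against 0.22. Members that passed the filter on low counts did so in part through the group where they were high, and 25, 25 and 15 of the 68 were not tested or not listed in bone, bone chips and the ESC comparison. The ADAMTS genes were mostly higher in each source. In fresh bone 10 of 16 were higher and 2 lower in GFP+ (hi) cells, and in bone chips 8 of 14 were higher and 2 lower. In ESC-OB 14 of 17 were higher and 1 lower. In bone chips the ADAM genes went mostly the other way, with 4 of 13 higher and 8 lower. For the MMP genes, 13 were tested in bone (5 called higher, 3 called lower), 13 in bone chips (2 and 5) and 16 in the ESC comparison (13 and 2).

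As a share of each library's unscaled counts, the members made up 0.372 to 0.414% for bone GFP+ (hi) cells, against 0.315 to 0.35% for bone GFP- cells. In bone chips their share was 0.88 to 1.11% in GFP+ (hi) libraries and 0.973 to 1.45% in GFP- libraries, which overlapped. In ESC-OB it was 0.527 to 0.694%, against 0.0575 to 0.0615% in ESC. These shares are not TMM-scaled, unlike the CPM. *Col1a1* alone made 36.2 to 37.5% of the unscaled counts in bone GFP+ (hi) libraries, against 0.805 to 1.59% in bone GFP- libraries. The TMM factors were 0.683 to 0.711, against 1.32 to 1.60, so small bone fold changes in CPM depend on this scaling. Among members called higher in bone, unscaled shares ran the other way for *Timp1* and *Adam15*. For *Adam19*, *Adamts1*, *Adamts4*, *Adamts7*, *Adamts9*, *Adamts10*, *Adamts17*, *Mmp8* and *Mmp14* they overlapped between groups.

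**Figure D1:**
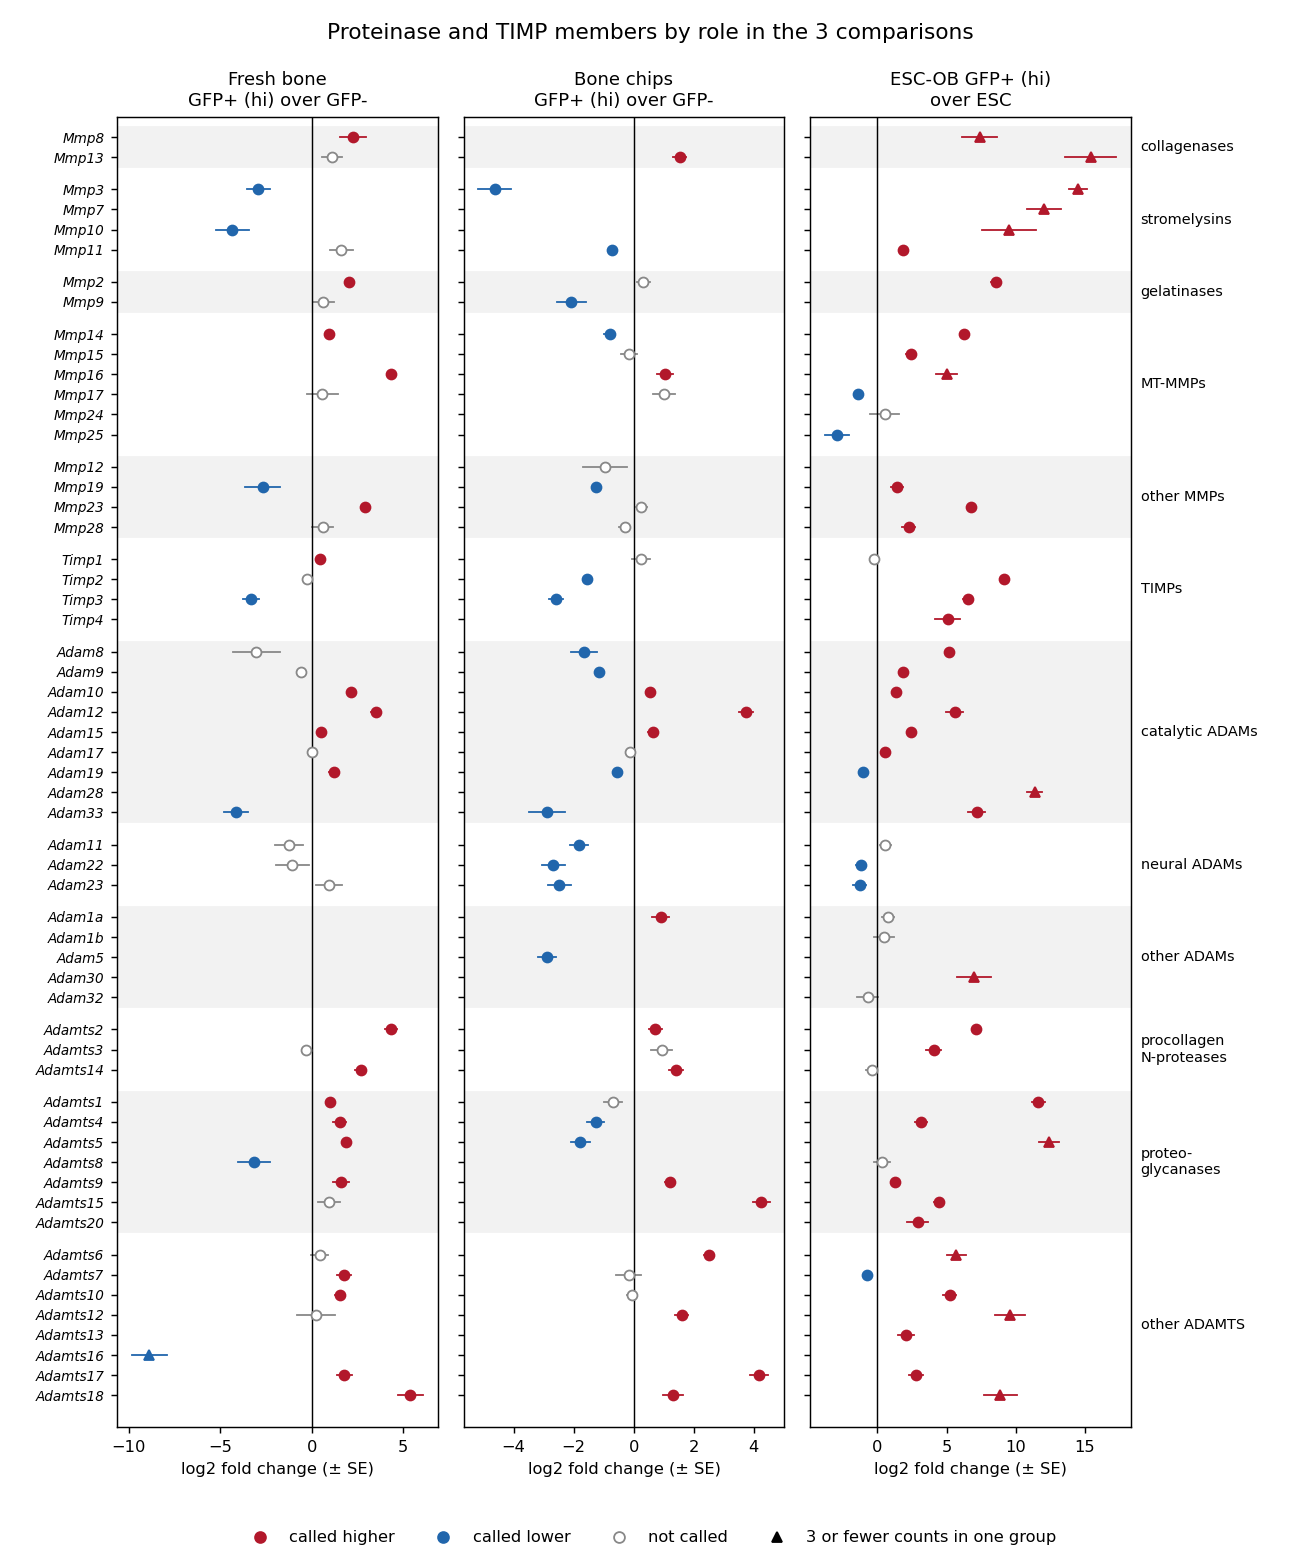
Log2 fold change with its standard error of each member tested, by role, in fresh bone, bone chips (both GFP+ (hi) over GFP-) and the ESC comparison (ESC-OB over ESC). Filled points passed the adjusted p of 0.05, open points did not, and triangles mark members with 3 or fewer counts in one group, whose position depends on the prior count of the fit. The horizontal scales differ between panels; the ESC panel has 39 filled points to the right of 0 and 6 to the left.

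*Mmp13* encodes collagenase-3, the chief interstitial collagenase of mouse bone and hypertrophic cartilage, and *Mmp3* encodes stromelysin-1, which cleaves proteoglycans and activates other proenzymes. Both lie in 1 cluster of 10 *Mmp* genes that spans 427 kb of chromosome 9 (chr9:7272514-7699585, mm9), in the order *Mmp13*, *Mmp12*, *Mmp1b*, *Mmp3*, *Mmp1a*, *Mmp10*, *Mmp8*, *Mmp27*, *Mmp20* and *Mmp7*. In bone chips *Mmp13* was higher and *Mmp3* lower in GFP+ (hi) cells, and *Mmp10* could not be tested. In fresh bone *Mmp3* and *Mmp10* were lower and *Mmp13* was not called, and in ESC-OB all 3 were higher. The 250 bases before the start sites of *Mmp13*, *Mmp3* and *Mmp10*, from RefSeq on GRCm38.p6, plus strand, are shown for these neighbours. They lie at chr9:7272264-7272513, chr9:7445572-7445821 and chr9:7502092-7502341, and capitals mark the AP-1 letters TGANTCA and the Runx letters TGTGGT on either strand (ACCACA on the printed one).
Mmp13: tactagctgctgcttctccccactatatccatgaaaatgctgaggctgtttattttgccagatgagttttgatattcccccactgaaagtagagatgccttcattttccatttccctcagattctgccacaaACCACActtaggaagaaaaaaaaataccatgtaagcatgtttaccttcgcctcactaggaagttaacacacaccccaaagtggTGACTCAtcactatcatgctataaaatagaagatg
Mmp3: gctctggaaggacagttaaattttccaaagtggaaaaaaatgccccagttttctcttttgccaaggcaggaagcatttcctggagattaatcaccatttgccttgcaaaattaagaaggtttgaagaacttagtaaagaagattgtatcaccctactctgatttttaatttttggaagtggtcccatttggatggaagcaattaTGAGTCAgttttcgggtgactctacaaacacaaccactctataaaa
Mmp10: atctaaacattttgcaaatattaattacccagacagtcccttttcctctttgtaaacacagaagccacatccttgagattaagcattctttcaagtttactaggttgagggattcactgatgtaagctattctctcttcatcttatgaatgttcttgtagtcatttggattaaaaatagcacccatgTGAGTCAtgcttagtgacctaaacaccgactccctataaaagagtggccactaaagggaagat

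All 3 windows held 1 AP-1 match and the letters TATAAA on the gene's strand, and that of *Mmp13* also held 1 Runx match. The AP-1 match began 35 bases before the start in *Mmp13*, 46 in *Mmp3* and 63 in *Mmp10*, and the Runx match of *Mmp13* began 118 bases before it. Among the windows of all 27025 genes in the table, 7.82% held an AP-1 match, 15.9% a Runx match and 8.94% the letters TATAAA. A window was given for 42 of the 68 members, of which 9 held an AP-1 match, 10 a Runx match and 9 TATAAA. A match of letters is a description and not a bound site.

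*Mmp13* was the most abundant member per kilobase of transcript in bone chip cells, at 2870 CPM per kb in GFP+ (hi) cells and 984 CPM per kb in GFP- cells. There it had 7100, 7190 and 8720 CPM in GFP+ (hi) libraries, against 2640, 1910 and 3340 CPM in GFP- libraries. All GFP+ (hi) libraries were above all GFP- libraries, by 2.91-fold (log2 fold change 1.54, SE 0.22, adjusted p = 0.00167).

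In fresh bone *Mmp13* had 99.6, 153 and 19.9 CPM in GFP+ (hi) libraries, against 50.2, 34.8 and 39.3 CPM in GFP- libraries. Replicate 3 of the GFP+ (hi) cells lay below every GFP- library and the groups overlapped (log2 fold change 1.13, SE 0.55, adjusted p = 0.131). Without that library *Mmp13* was called higher, at a log2 fold change of 1.61 (adjusted p = 4.1e-04), and without GFP+ (hi) replicate 2 the value was 0.53 (adjusted p = 0.455). *Mmp13* had 38.3, 506 and 408 CPM in ESC-OB, against no count in the 3 ESC libraries. ESC-OB replicate 1, the library low in *Col1a1* and *Ibsp*, was far below the others, and the difference was at least 2770-fold by the limit that 3 counts over the group set.

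*Mmp3* went the opposite way to *Mmp13* in bone chips. It had 55.5, 48.1 and 86.7 CPM in chip GFP+ (hi) libraries, against 1230, 750 and 2750 CPM in chip GFP- libraries. The groups lay far apart, with *Mmp3* 24.8-fold lower in GFP+ (hi) cells (log2 fold change -4.63, SE 0.55, adjusted p = 0.00071; -3.95 without GFP- replicate 3, the highest library). In fresh bone *Mmp3* was also lower, at 3.24, 7.79 and 0.77 CPM in GFP+ (hi) libraries, against 18.9, 29.1 and 39.3 CPM in GFP- libraries. Its log2 fold change there was -2.92 (SE 0.63, adjusted p = 0.00498), and -3.81 without GFP+ (hi) replicate 2. ESC-OB libraries had 115, 222 and 171 CPM of *Mmp3*, against no count in ESC, which puts ESC-OB at least 1540-fold higher.

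*Mmp10*, encoding stromelysin-2, was low in most libraries. It had 0.16, 0.0683 and 0 CPM in bone GFP+ (hi) libraries, against 1.21, 2.75 and 1.64 CPM in bone GFP- libraries, and was lower in GFP+ (hi) cells (log2 fold change -4.35, SE 0.90, adjusted p = 0.00388; -5.57 without GFP+ (hi) replicate 1). It had too few counts to test in bone chips, with 12 counts in the 3 GFP+ (hi) libraries and 47 in the 3 GFP- libraries. *Mmp10* had 1.52, 12.7 and 1.81 CPM in ESC-OB, against no count in ESC. The high library was replicate 2, and the difference was at least 45.7-fold.

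*Mmp11*, encoding stromelysin-3, which furin activates inside the cell, was higher in ESC-OB and lower in chip GFP+ (hi) cells. ESC-OB libraries had 81, 101 and 128 CPM, against 27.5, 25.9 and 32.3 CPM in ESC (log2 fold change 1.86, SE 0.20, adjusted p = 9.0e-06). *Mmp11* had 8.05, 9.55 and 7.1 CPM in chip GFP+ (hi) libraries, against 14.4, 14.1 and 11.9 CPM in chip GFP- libraries (log2 fold change -0.71, SE 0.15, adjusted p = 0.00892). The groups did not overlap in either source. *Mmp11* had 3.01, 2.8 and 8.19 CPM in bone GFP+ (hi) libraries, against 1.43, 0.686 and 2.46 CPM in bone GFP- libraries, with no call (log2 fold change 1.61, adjusted p = 0.0622), although it was called with DESeq2 (1.61, adjusted p = 0.04) or without GFP- replicate 3 (2.16, adjusted p = 0.0498). Without GFP+ (hi) replicate 3, the library highest in *Mmp11*, the bone value was 0.94 (adjusted p = 0.182).

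*Mmp8*, the neutrophil collagenase, and *Mmp7*, the matrilysin of glandular epithelia, were members of the same cluster at lower levels. *Mmp8* had 4.3, 2.6 and 5.15 CPM in bone GFP+ (hi) libraries, against 1.65, 0.114 and 0.702 CPM in bone GFP- libraries (log2 fold change 2.27, SE 0.72, adjusted p = 0.0304). That call ended without GFP+ (hi) replicate 1 (adjusted p = 0.0699), GFP- replicate 2 (0.0628) or GFP- replicate 3 (0.0913), and the value was 3.31 without GFP- replicate 1. The 8 neutrophil markers summed to 2.24 to 50.5 CPM in bone GFP+ (hi) libraries, against 5.03 to 214 CPM in bone GFP- libraries, with 0 of 7 tested called and no marker at 0 in either group. Their part in the result was not tested. In ESC-OB *Mmp8* had 0.795, 1.55 and 1.29 CPM, against no count in ESC, at least 11.1-fold higher. Of the 6 neutrophil markers listed there, *Ltf*, which glandular epithelia express too, had 839, 659 and 704 CPM in ESC-OB, against 0.184, 0 and 0 CPM in ESC. The other 5, *Elane*, *Mpo*, *S100a8*, *S100a9* and *Camp*, had 9 counts or fewer over the 3 libraries of either group.

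*Mmp7* was listed in the ESC table only. It had 20.6, 54.4 and 14.3 CPM in ESC-OB, against no count in ESC, at least 266-fold higher. Epithelial markers moved with it: 6 of 6 were higher in ESC-OB, with summed levels of 3280 to 4800 CPM in ESC-OB, against 98.5 to 111 CPM in ESC, and 1 of the 6 at 0 in ESC alone. Their part in the result was not tested. The other collagenase genes, *Mmp1a* and *Mmp1b*, which are close copies of each other, had at most 8 counts over the 3 libraries of any group.

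**Figure D2:**
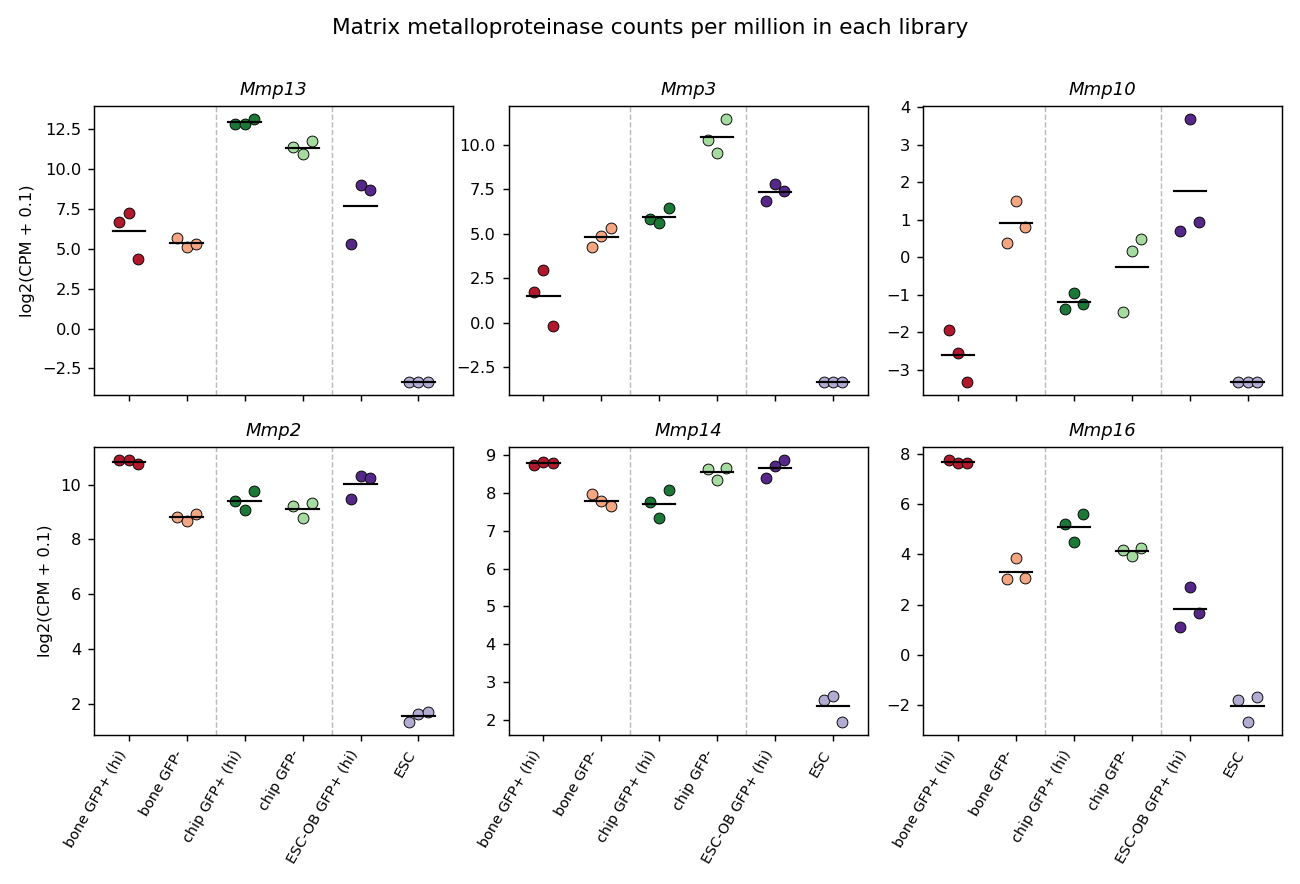
CPM of 6 matrix metalloproteinases in each of the 18 libraries, as log2(CPM + 0.1), with the mean of each group as a bar. Dashed lines part the sources, which were normalized separately. *Mmp13* was highest in chip GFP+ (hi) cells and *Mmp3* in chip GFP- cells, while *Mmp2*, *Mmp14* and *Mmp16* were higher in all 3 bone GFP+ (hi) libraries than in bone GFP- libraries.

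The gelatinases differed in level by far. *Mmp2* encodes gelatinase A, which cleaves denatured collagen and is activated at the cell surface by the product of *Mmp14* together with TIMP2. It was the most abundant member per kilobase in bone GFP+ (hi) cells, at 609 CPM per kb, against 147 CPM per kb in bone GFP- cells. *Mmp2* had 1900, 1930 and 1720 CPM in bone GFP+ (hi) libraries, against 447, 413 and 483 CPM in bone GFP- libraries. These libraries were tight within groups and 4.13-fold apart (log2 fold change 2.05, SE 0.16, adjusted p = 9.6e-06).

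In bone chips *Mmp2* had 684, 534 and 878 CPM in GFP+ (hi) libraries, against 599, 442 and 638 CPM in GFP- libraries. The groups overlapped and there was no call (log2 fold change 0.32, SE 0.22, adjusted p = 0.272). With the replicate number as a block, which treats same-numbered chip libraries as pairs, the value was 0.31 and passed (adjusted p = 0.047). In ESC-OB *Mmp2* had 717, 1270 and 1220 CPM, against 2.4, 2.94 and 3.14 CPM in ESC, a 374-fold difference (log2 fold change 8.55, SE 0.33, adjusted p = 1.2e-08).

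*Mmp9* encodes gelatinase B, an enzyme of osteoclasts and neutrophils. *Mmp9* had 0.284, 0.83 and 0.797 CPM in chip GFP+ (hi) libraries, against 1.66, 4.06 and 2.5 CPM in chip GFP- libraries, and was lower (log2 fold change -2.08, SE 0.48, adjusted p = 0.012). *Mmp9* had 2.69, 4.99 and 1.4 CPM in bone GFP+ (hi) libraries, against 2.75, 1.14 and 1.87 CPM in bone GFP- libraries (log2 fold change 0.64, adjusted p = 0.415). Osteoclast markers summed to 223 to 234 CPM in chip GFP+ (hi) libraries, against 180 to 198 CPM in chip GFP- libraries, and none of the 8 was at 0 in either group. *Ctsk* (122 to 140 CPM in GFP+ (hi) libraries, against 109 to 129 CPM in GFP- libraries) and *Itgb3* (51.6 to 79.9 CPM, against 12.7 to 20.2 CPM) made most of these sums. Of the 4 markers tested there, *Itgb3* was higher and *Acp5* lower. *Atp6v0d2* had 24 counts in chip GFP+ (hi) libraries, against 124 in chip GFP- libraries, *Dcstamp* 7 against 37 and *Ocstamp* 5 against 14. The library highest in *Mmp9*, GFP- replicate 2, was also the highest in *Atp6v0d2* (5.14 CPM) and *Dcstamp* (1.97 CPM). The part of these markers in the *Mmp9* result was not tested, and without that library *Mmp9* was still called (-1.71, adjusted p = 0.0142).

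Among the membrane-type MMPs, which sit on the cell surface and activate other MMPs or cut collagen there, *Mmp16* had the largest effect in bone. Its product is MT3-MMP. It had 219, 203 and 201 CPM in bone GFP+ (hi) libraries, against 8.03, 14.4 and 8.19 CPM in bone GFP- libraries, 20.3-fold higher (log2 fold change 4.34, SE 0.25, adjusted p = 1.5e-06). *Mmp16* had 37.5, 22.2 and 48.3 CPM in chip GFP+ (hi) libraries, against 18.2, 15.1 and 18.9 CPM in chip GFP- libraries. The chip groups lay apart but closer together (log2 fold change 1.05, SE 0.27, adjusted p = 0.0187), and the call ended without GFP+ (hi) replicate 1 (adjusted p = 0.0606). In ESC-OB *Mmp16* had 2.07, 6.44 and 3.06 CPM, against 0.184, 0.0555 and 0.209 CPM in ESC. That was 277 counts against 3, a ratio of 34.4 (95% counting interval 11.7 to 168; adjusted p = 1.5e-04).

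*Mmp14* encodes MT1-MMP, the main pericellular collagenase. It had 422, 451 and 438 CPM in bone GFP+ (hi) libraries, against 249, 218 and 201 CPM in bone GFP- libraries (log2 fold change 0.97, SE 0.14, adjusted p = 0.00061). In bone chips the direction was the other, with 216, 160 and 267 CPM in GFP+ (hi) libraries, against 394, 324 and 400 CPM in GFP- libraries. Neither pair of groups overlapped in CPM, although the bone groups did as shares of the unscaled totals. The chip value (log2 fold change -0.80, SE 0.19, adjusted p = 0.0146) lost its call without GFP+ (hi) replicate 1 (adjusted p = 0.0548) or GFP- replicate 1 (0.0543). In ESC-OB *Mmp14* had 333, 416 and 467 CPM, against 5.71, 6.16 and 3.77 CPM in ESC (log2 fold change 6.23, SE 0.25, adjusted p = 1.4e-08).

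Of the other membrane-type genes, *Mmp15*, *Mmp17* and *Mmp25* were called in the ESC comparison only. *Mmp15*, encoding MT2-MMP, had 54.4, 30.3 and 53.3 CPM in ESC-OB, against 13.3, 7.6 and 4.4 CPM in ESC (log2 fold change 2.45, SE 0.36, adjusted p = 9.3e-05). *Mmp17* and *Mmp25* encode the 2 MT-MMPs held by a lipid anchor, and both were lower in ESC-OB. *Mmp17* had 11.4, 14 and 8.17 CPM in ESC-OB, against 29.5, 29.8 and 27 CPM in ESC (log2 fold change -1.37, SE 0.23, adjusted p = 3.0e-04). *Mmp25* had 0, 0.548 and 0.161 CPM in ESC-OB, against 0.922, 2.39 and 1.68 CPM in ESC (log2 fold change -2.92, SE 0.88, adjusted p = 0.0107), a call that ended without ESC-OB replicate 3 (adjusted p = 0.0709) or ESC replicate 2 (0.101) and a value that was -4.30 without ESC-OB replicate 2 and -2.21 without ESC-OB replicate 1. In bone chips *Mmp17* was not called (log2 fold change 1.01, adjusted p = 0.0569) except without GFP- replicate 2 (1.25, adjusted p = 0.0332), and the value was 0.77 without GFP- replicate 1.

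*Mmp23*, a short MMP with a membrane anchor at its start, was likewise higher in bone GFP+ (hi) cells. It had 111, 128 and 169 CPM in bone GFP+ (hi) libraries, against 21.3, 14.1 and 18.8 CPM in bone GFP- libraries, 7.52-fold higher (log2 fold change 2.91, SE 0.22, adjusted p = 9.9e-06). In bone chips the groups overlapped, at 101, 81.9 and 132 CPM in GFP+ (hi) libraries, against 94.2, 84.9 and 83.8 CPM in GFP- libraries (log2 fold change 0.26, SE 0.17, adjusted p = 0.267). ESC-OB libraries had 133, 121 and 95.5 CPM, against 1.84, 0.721 and 1.05 CPM in ESC (log2 fold change 6.79, SE 0.31, adjusted p = 2.4e-08).

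*Mmp19* was lower in GFP+ (hi) cells of bone and of bone chips. *Mmp19* had 18.4, 16.6 and 15.9 CPM in chip GFP+ (hi) libraries, against 45.2, 37.5 and 39 CPM in chip GFP- libraries (log2 fold change -1.26, SE 0.11, adjusted p = 1.8e-04). *Mmp19* had 0.449, 0.683 and 0 CPM in bone GFP+ (hi) libraries, against 2.97, 1.37 and 2.92 CPM in bone GFP- libraries (log2 fold change -2.69, SE 0.95, adjusted p = 0.0456). The bone call ended without GFP+ (hi) replicate 1 (adjusted p = 0.0919) or any of GFP- replicates 1, 2 and 3 (0.151, 0.0817 and 0.14). *Mmp19* was higher in ESC-OB, at 4.66, 8.03 and 5.51 CPM, against 3.5, 1.94 and 1.47 CPM in ESC (log2 fold change 1.41, SE 0.42, adjusted p = 0.00987; 0.0586 without ESC replicate 2).

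*Mmp28*, encoding epilysin, was called in the ESC comparison alone, with 5.01, 7.39 and 4.14 CPM in ESC-OB, against 1.66, 0.777 and 1.26 CPM in ESC (log2 fold change 2.25, SE 0.45, adjusted p = 9.1e-04). *Mmp12*, the macrophage elastase, had 9.66, 5.15 and 4.23 CPM in chip GFP+ (hi) libraries, against 6.97, 26.3 and 3.62 CPM in chip GFP- libraries, with no call (log2 fold change -0.96, adjusted p = 0.325). The high library was GFP- replicate 2, in which 7 macrophage markers summed to 4220 CPM, against 362 and 483 CPM in the other GFP- libraries and 526 to 881 CPM in GFP+ (hi) libraries. None of the 7 was at 0 in either group, and 0 of 7 passed the test. Without that library the *Mmp12* value was 0.29 (adjusted p = 0.601).

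The TIMPs did not move together. *Timp3* was lower in GFP+ (hi) cells of bone and bone chips, *Timp2* in bone chips, and *Timp1* was called in bone alone. *Timp1*, *Timp3* and *Timp4* lie inside *Syn1*, *Syn3* and *Syn2* on the opposite strand, and 14 of the 68 members overlap a coding gene on the other strand. The strand setting of the counting is not given in the sources used here, so reads from such pairs may not be told apart.

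*Timp3* encodes the TIMP that binds to the matrix and that also inhibits ADAM17 and the aggrecanases. *Timp3* had 41.7, 57.5 and 13.4 CPM in bone GFP+ (hi) libraries, against 353, 446 and 331 CPM in bone GFP- libraries, 10.1-fold lower (log2 fold change -3.33, SE 0.45, adjusted p = 3.2e-04). *Timp3* had 183, 216 and 165 CPM in chip GFP+ (hi) libraries, against 1200, 1400 and 764 CPM in chip GFP- libraries (log2 fold change -2.58, SE 0.24, adjusted p = 2.6e-04). The groups were apart in both, and GFP+ (hi) replicate 3 was the lowest bone library. In ESC-OB the direction was reversed, with 355, 694 and 588 CPM, against 4.42, 6.16 and 7.12 CPM in ESC (log2 fold change 6.53, SE 0.32, adjusted p = 3.7e-08).

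*Timp2* encodes the inhibitor that also bridges MT1-MMP and pro-MMP2 on the cell surface. It had 499, 442 and 536 CPM in chip GFP+ (hi) libraries, against 1590, 1220 and 1480 CPM in chip GFP- libraries, 2.9-fold lower (log2 fold change -1.54, SE 0.14, adjusted p = 2.1e-04). *Timp2* had 321, 377 and 303 CPM in bone GFP+ (hi) libraries, against 399, 336 and 444 CPM in bone GFP- libraries, which overlapped (log2 fold change -0.24, SE 0.16, adjusted p = 0.278). In ESC-OB it was the second member by length-scaled level, at 326 CPM per kb. There it had 1340, 968 and 1320 CPM, against 2.58, 1.89 and 2.09 CPM in ESC (log2 fold change 9.16, SE 0.28, adjusted p = 8.1e-09).

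*Timp1*, a secreted inhibitor of most MMPs, had 233, 245 and 233 CPM in bone GFP+ (hi) libraries, against 166, 166 and 189 CPM in bone GFP- libraries. This 1.37-fold difference (log2 fold change 0.45, SE 0.14, adjusted p = 0.0241) lost its call without GFP+ (hi) replicate 1 (adjusted p = 0.0673), GFP+ (hi) replicate 2 (0.0942) or GFP- replicate 1 (0.0719). The direction of the bone difference rests on the TMM scaling, as the unscaled shares of *Timp1* ran the other way. *Timp1* had 648, 489 and 942 CPM in chip GFP+ (hi) libraries, against 568, 421 and 780 CPM in chip GFP- libraries (log2 fold change 0.23, SE 0.30, adjusted p = 0.559). *Timp1* had 41.9, 97.4 and 50.1 CPM in ESC-OB, against 62.3, 81.6 and 81.9 CPM in ESC, with no call (log2 fold change -0.26, SE 0.29, adjusted p = 0.424; -0.64 and 0.00788 without ESC-OB replicate 2, 0.03 and 0.917 without ESC-OB replicate 1). Per kilobase *Timp1* was the first member in ESC, at 85.3 CPM per kb, against 71.5 CPM per kb in ESC-OB.

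*Timp4* was near 0 in bone, with 2 counts in GFP+ (hi) libraries and none in GFP- libraries. *Timp4* had 3 counts in chip GFP+ (hi) libraries and 29 in chip GFP- libraries, too few to test. *Timp4* had 2.59, 17.3 and 11.3 CPM in ESC-OB, against 0, 0.222 and 0.838 CPM in ESC (log2 fold change 5.09, SE 0.90, adjusted p = 3.8e-04; 5.93 without ESC replicate 3). The ESC-OB libraries spread widely but all lay above the ESC libraries.

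**Figure D3:**
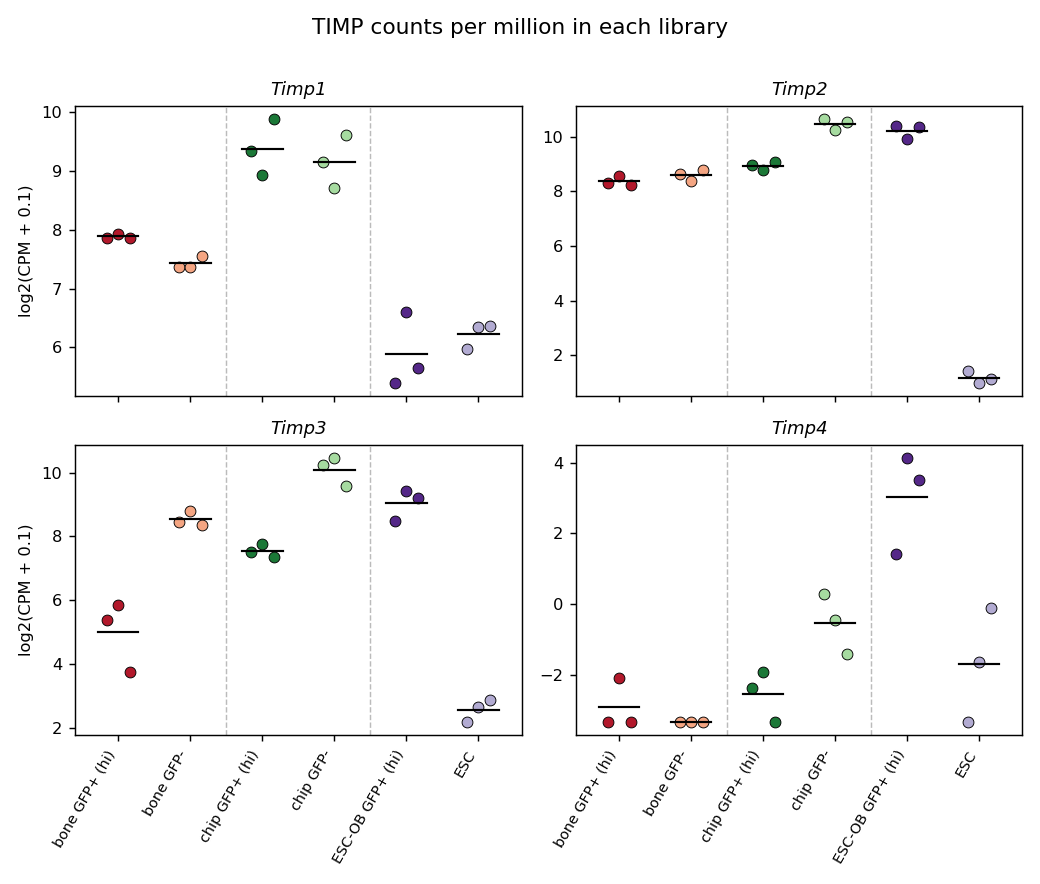
CPM of the 4 TIMPs in each of the 18 libraries, as log2(CPM + 0.1), with the mean of each group as a bar and dashed lines between the separately normalized sources. *Timp3* was lower in all GFP+ (hi) libraries of bone (13.4 to 57.5 CPM) and bone chips (165 to 216 CPM) than in their GFP- libraries, and *Timp2* in those of bone chips.

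Among the ADAMs with a working catalytic site, *Adam12* had the highest fold change in bone and in bone chips. Its product, meltrin alpha, sheds growth factors and takes part in cell fusion and adhesion. *Adam12* had 176, 207 and 167 CPM in bone GFP+ (hi) libraries, against 12, 12.9 and 23.3 CPM in bone GFP- libraries, 11.4-fold higher (log2 fold change 3.51, SE 0.26, adjusted p = 8.4e-06). *Adam12* had 244, 192 and 306 CPM in chip GFP+ (hi) libraries, against 16.7, 15.4 and 22.8 CPM in chip GFP- libraries (log2 fold change 3.75, SE 0.23, adjusted p = 5.6e-05). The groups lay far apart in both. In ESC-OB it was scarce, at 6.11, 8.49 and 7.28 CPM, against 0.369, 0.111 and 0 CPM in ESC (log2 fold change 5.58, SE 0.60, adjusted p = 9.3e-06; 6.31 without ESC replicate 1).

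*Adam10*, the sheddase of Notch receptors and of amyloid precursor protein, was higher in all 3 sources. It had 80.9, 81.8 and 59.6 CPM in bone GFP+ (hi) libraries, against 16.2, 16.6 and 17 CPM in bone GFP- libraries, 4.47-fold higher (log2 fold change 2.16, SE 0.18, adjusted p = 1.6e-05). *Adam10* had 145, 129 and 134 CPM in chip GFP+ (hi) libraries, against 91.5, 92 and 94.4 CPM in chip GFP- libraries (log2 fold change 0.55, SE 0.08, adjusted p = 0.00171). *Adam10* had 239, 115 and 192 CPM in ESC-OB, against 77.6, 74.5 and 67 CPM in ESC (log2 fold change 1.32, SE 0.24, adjusted p = 5.1e-04). No GFP+ (hi) library overlapped its comparison group.

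*Adam15*, whose disintegrin domain binds integrins, was called higher in all 3 sources, by small steps in bone and chips. It had 81.5, 104 and 107 CPM in bone GFP+ (hi) libraries, against 60.7, 58.8 and 82.6 CPM in bone GFP- libraries, which overlapped (log2 fold change 0.53, SE 0.18, adjusted p = 0.0428). That call ended without GFP+ (hi) replicate 2 or 3 (adjusted p = 0.122 and 0.092), GFP- replicate 1 or 2 (0.129 and 0.108), and with RLE factors (0.0536). The direction of the bone difference rests on the TMM scaling, as the unscaled shares of *Adam15* ran the other way. *Adam15* had 103, 106 and 104 CPM in chip GFP+ (hi) libraries, against 64.8, 84.6 and 51.9 CPM in chip GFP- libraries (log2 fold change 0.64, SE 0.17, adjusted p = 0.0219), and lost its call without GFP+ (hi) replicate 1, 2 or 3 (0.0633, 0.063 and 0.0546). *Adam15* had 160, 123 and 170 CPM in ESC-OB, against 29.5, 28.9 and 24.3 CPM in ESC (log2 fold change 2.45, SE 0.18, adjusted p = 5.9e-07).

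*Adam19* and *Adam33* went lower or higher by source. *Adam19*, encoding meltrin beta, was higher in bone GFP+ (hi) cells, at 11.5, 14.6 and 16.6 CPM, against 6.27, 7.21 and 4.68 CPM in GFP- cells (log2 fold change 1.23, SE 0.27, adjusted p = 0.00565). As shares of the unscaled totals its bone groups overlapped. It was lower in chip GFP+ (hi) cells, at 32.9, 35.4 and 25.3 CPM, against 44.6, 44.4 and 46.9 CPM in chip GFP- cells (log2 fold change -0.54, SE 0.13, adjusted p = 0.0151), where the call ended without GFP- replicate 1 (0.0503) or GFP- replicate 3 (0.0528). In ESC-OB it was lower again, at 90.3, 35.8 and 82.6 CPM, against 142, 152 and 137 CPM in ESC (log2 fold change -1.04, SE 0.29, adjusted p = 0.00644).

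*Adam33* was lower in GFP+ (hi) cells of both bone and chips. *Adam33* had 0.0641, 0.273 and 0.289 CPM in bone GFP+ (hi) libraries, against 3.63, 3.77 and 3.51 CPM in bone GFP- libraries (log2 fold change -4.15, SE 0.67, adjusted p = 0.00101). *Adam33* had 0.473, 0.332 and 0.0797 CPM in chip GFP+ (hi) libraries, against 2.53, 2.98 and 1.16 CPM in chip GFP- libraries (log2 fold change -2.89, SE 0.60, adjusted p = 0.00774). The groups did not overlap in either. *Adam33* was higher in ESC-OB, at 19.5, 41.4 and 17.5 CPM, against 0, 0.222 and 0.209 CPM in ESC (log2 fold change 7.18, SE 0.60, adjusted p = 1.3e-06; 7.94 without ESC replicate 2).

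*Adam9*, encoding meltrin gamma, and *Adam8*, of leukocytes and osteoclasts, were lower in chip GFP+ (hi) cells. *Adam9* had 73.7, 65.7 and 71.1 CPM in chip GFP+ (hi) libraries, against 161, 131 and 177 CPM in chip GFP- libraries (log2 fold change -1.16, SE 0.13, adjusted p = 5.0e-04). *Adam8* had 26.6, 23.7 and 18.7 CPM in chip GFP+ (hi) libraries, against 53.5, 126 and 38.4 CPM in chip GFP- libraries (log2 fold change -1.66, SE 0.44, adjusted p = 0.0203). Its high library, GFP- replicate 2, was the one rich in macrophage markers. Without it the *Adam8* value was -1.0 (adjusted p = 0.00352), and the call ended without GFP+ (hi) replicate 1, 2 or 3 (0.0555, 0.0617 and 0.0713).

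In ESC-OB *Adam9* and *Adam8* were higher. *Adam9* had 141, 129 and 129 CPM in ESC-OB, against 40.7, 38.8 and 33.1 CPM in ESC (log2 fold change 1.82, SE 0.16, adjusted p = 1.6e-06). *Adam8* had 58.3, 43.2 and 48.9 CPM in ESC-OB, against 1.84, 1.22 and 1.26 CPM in ESC (log2 fold change 5.17, SE 0.26, adjusted p = 4.5e-08). Macrophage markers were higher there too, with 6 of 6 tested higher and sums of 90.1 to 121 CPM in ESC-OB, against 15.5 to 20.5 CPM in ESC. Of the 7 listed none was at 0 in ESC-OB and 2 were at 0 in ESC. Their part in the *Adam8* result was not tested. In bone *Adam8* had 0, 1.09 and 0.0482 CPM in GFP+ (hi) libraries, against 3.08, 0.801 and 4.56 CPM in GFP- libraries, with no call (log2 fold change -3.03, adjusted p = 0.0872). It was called with DESeq2 (-2.97, adjusted p = 0.0397) and without GFP+ (hi) replicate 2 (-6.65, adjusted p = 0.00364), and the bone value was -2.34 without GFP+ (hi) replicate 1 (adjusted p = 0.15) and -2.43 without GFP- replicate 3 (adjusted p = 0.263).

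*Adam28*, a lymphocyte and epithelial ADAM, had the largest ADAM effect in ESC-OB. It had 155, 91.5 and 97.4 CPM there, or 8913 counts, against 1 count in ESC, a ratio of 3320 (95% counting interval 596 to 131000; adjusted p = 2.9e-08). *Adam28* had 3 counts in bone GFP+ (hi) libraries and 1 in bone GFP- libraries, and bone chips did not list it. The epithelial markers given above for *Mmp7* were also higher in these ESC-OB libraries.

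*Adam17*, encoding the TNF converting enzyme, gave no call in bone (log2 fold change -0.00, SE 0.20, adjusted p = 0.99) or bone chips (-0.11, SE 0.09, adjusted p = 0.354). *Adam17* had 36, 34.8 and 26.1 CPM in bone GFP+ (hi) libraries, against 27.8, 38.9 and 30.4 CPM in bone GFP- libraries. The bone groups overlapped. *Adam17* was higher in ESC-OB, at 79.5, 70.7 and 85.6 CPM, against 45.3, 64.9 and 53.6 CPM in ESC (log2 fold change 0.52, SE 0.17, adjusted p = 0.0186), but not without ESC replicate 1 (0.069) or ESC replicate 3 (0.0668).

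*Adam11*, *Adam22* and *Adam23* encode ADAMs that lack the zinc site and serve as receptors on neurons. All 3 were lower in chip GFP+ (hi) cells and none was called in fresh bone. *Adam23* was the most abundant, at 17.7, 13.9 and 25.4 CPM in chip GFP+ (hi) libraries, against 136, 56.9 and 125 CPM in chip GFP- libraries (log2 fold change -2.48, SE 0.38, adjusted p = 0.00204). *Adam22* had 0.473, 0.415 and 0.319 CPM in chip GFP+ (hi) libraries, against 2.44, 3.62 and 1.81 CPM in chip GFP- libraries (log2 fold change -2.68, SE 0.38, adjusted p = 0.0015). *Adam11* had 0.379, 0.581 and 0.558 CPM in chip GFP+ (hi) libraries, against 2.18, 1.65 and 1.67 CPM in chip GFP- libraries (log2 fold change -1.82, SE 0.29, adjusted p = 0.00259). The chip groups lay apart for each of the 3.

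In fresh bone these ADAMs had 1 GFP+ (hi) library below the others. *Adam23* had 6.09, 4.17 and 0.819 CPM in bone GFP+ (hi) libraries, against 2.42, 2.29 and 0.936 CPM in bone GFP- libraries (log2 fold change 0.97, adjusted p = 0.303; 1.45 and 0.029 without GFP+ (hi) replicate 3, 0.40 and 0.735 without GFP+ (hi) replicate 1). *Adam22* had 1.31, 1.37 and 0.0482 CPM in GFP+ (hi) libraries, against 0.99, 2.29 and 2.46 CPM in GFP- libraries. *Adam11* had 1.41, 1.57 and 0.144 CPM in GFP+ (hi) libraries, against 3.41, 2.63 and 1.4 CPM in GFP- libraries. The low library was replicate 3 in each, as for *Mmp13*, *Mmp3* and *Timp3*.

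In the ESC comparison *Adam22* and *Adam23* were lower in ESC-OB. *Adam22* had 3.42, 6.71 and 3.06 CPM in ESC-OB, against 10.3, 9.99 and 9.64 CPM in ESC (log2 fold change -1.19, SE 0.36, adjusted p = 0.0105; 0.0582 without ESC-OB replicate 3). *Adam23* had 20.8, 40.9 and 24.1 CPM in ESC-OB, against 21.2, 94.5 and 91.1 CPM in ESC (log2 fold change -1.28, SE 0.46, adjusted p = 0.0242). ESC replicate 1 lay among the ESC-OB libraries, and the *Adam23* call ended without ESC-OB replicate 1 or 3 (0.111 and 0.136) or ESC replicate 2 or 3 (0.136 and 0.0873).

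The 10 remaining ADAMs, most of them known from testis and sperm, were at or near the floor. In bone none had enough counts to test. In bone chips *Adam5* was lower in GFP+ (hi) cells, at 0.568, 0.415 and 0.558 CPM, against 4.97, 3.43 and 3.15 CPM in GFP- cells (log2 fold change -2.88, SE 0.30, adjusted p = 4.0e-04). *Adam1a*, a near copy of *Adam1b*, had 1.7, 1.99 and 2.55 CPM in chip GFP+ (hi) libraries, against 1.48, 0.889 and 1.02 CPM in chip GFP- libraries. Its log2 fold change of 0.90 (SE 0.29, adjusted p = 0.0423) lost its call with the replicate block (0.0656), with DESeq2 (0.117), and without GFP+ (hi) replicate 1, 2 or 3 (0.0638, 0.0902 and 0.129) or GFP- replicate 2 or 3 (0.09 and 0.113). In ESC-OB *Adam30* had 1, 0.958 and 0.764 CPM, against no count in ESC, at least 8.57-fold higher.

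The procollagen N-proteases, which cut the amino-terminal propeptides from fibrillar procollagens so that fibrils can form, had the highest median log2 fold change of the roles in bone, at 2.67. *Adamts2*, whose loss causes the skin fragility of dermatosparaxis, had 1140, 1250 and 1220 CPM in bone GFP+ (hi) libraries, against 41.3, 44.7 and 91 CPM in bone GFP- libraries. It was 20.4-fold higher (log2 fold change 4.35, SE 0.32, adjusted p = 7.2e-06). *Adamts2* had 207, 135 and 236 CPM in chip GFP+ (hi) libraries, against 138, 103 and 111 CPM in chip GFP- libraries. The chip groups overlapped, and the chip call (log2 fold change 0.72, SE 0.22, adjusted p = 0.0346) ended without GFP+ (hi) replicate 1 or 3 (0.109 and 0.101) or GFP- replicate 2 or 3 (0.0588 and 0.0887). In ESC-OB *Adamts2* had 91.4, 145 and 109 CPM, against 1.29, 0.777 and 0.419 CPM in ESC (log2 fold change 7.12, SE 0.32, adjusted p = 2.3e-08).

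*Adamts14* was higher in bone and chips. It had 87.5, 77.8 and 77 CPM in bone GFP+ (hi) libraries, against 15.5, 6.75 and 15.8 CPM in bone GFP- libraries (log2 fold change 2.67, SE 0.29, adjusted p = 8.6e-05). *Adamts14* had 23.7, 22.7 and 40 CPM in chip GFP+ (hi) libraries, against 11.2, 9.27 and 12 CPM in chip GFP- libraries (log2 fold change 1.41, SE 0.24, adjusted p = 0.00345). Both pairs of groups lay apart. *Adamts14* had 2.73, 5.16 and 7.52 CPM in ESC-OB, against 7.37, 7.16 and 5.87 CPM in ESC, with no call (log2 fold change -0.41, SE 0.39, adjusted p = 0.352).

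*Adamts3*, the N-protease best known from cartilage and from VEGF-C processing, was not called in bone. It had 23.3, 18.4 and 21.6 CPM in bone GFP+ (hi) libraries, against 27.7, 21 and 30.9 CPM in bone GFP- libraries (log2 fold change -0.33, SE 0.20, adjusted p = 0.21). *Adamts3* had 10.8, 8.8 and 12.8 CPM in chip GFP+ (hi) libraries, against 5.31, 3.11 and 8.35 CPM in chip GFP- libraries. The chip groups lay apart, yet the call was made only with the replicate block (log2 fold change 1.02, adjusted p = 0.00996), with DESeq2 (0.0346) or without GFP- replicate 3 (1.39, adjusted p = 0.0142). The value was 0.94 (adjusted p = 0.0664) with all libraries and 0.62 (adjusted p = 0.0675) without GFP- replicate 2. *Adamts3* was higher in ESC-OB, at 3.49, 7.8 and 7.08 CPM, against 0.369, 0.333 and 0.419 CPM in ESC (log2 fold change 4.06, SE 0.53, adjusted p = 3.8e-05).

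The astacin protease *Bmp1*, which cuts the carboxy-terminal propeptides, and the enhancers of that cut were given beside them. *Bmp1* had 1460, 1590 and 1740 CPM in bone GFP+ (hi) libraries, against 150, 119 and 190 CPM in bone GFP- libraries (log2 fold change 3.38, SE 0.21, adjusted p = 3.0e-06). It was also higher in bone chips (log2 fold change 1.99, adjusted p = 5.8e-04) and ESC-OB (6.71, adjusted p = 1.5e-08). *Pcolce2*, an enhancer, had 28.1, 30.7 and 28.2 CPM in bone GFP+ (hi) libraries, against 332, 218 and 286 CPM in bone GFP- libraries (log2 fold change -3.26, adjusted p = 1.8e-06). In bone chips it went the other way (log2 fold change 2.85, adjusted p = 1.7e-05). *Pcolce*, the more abundant enhancer, ran opposite to *Pcolce2* in both sources, with 1630 to 1910 CPM in bone GFP+ (hi) libraries, against 415 to 623 CPM in bone GFP- libraries (log2 fold change 1.87, adjusted p = 7.9e-05). In bone chips *Pcolce* was lower in GFP+ (hi) cells (log2 fold change -0.59, adjusted p = 0.0171). From this list of 7 genes, bone had 2 higher and 2 lower among 4 tested (median log2 fold change -0.70). Bone chips had 2 higher and 1 lower among 3 tested (1.99), and the ESC comparison had 3 higher and 2 lower among 5 tested (2.00).

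The ADAMTS proteoglycanases cleave aggrecan, versican and related proteoglycans. In fresh bone *Adamts1*, *Adamts4*, *Adamts5* and *Adamts9* were higher in GFP+ (hi) cells, and in bone chips *Adamts4* and *Adamts5* were lower there. *Adamts5*, the chief aggrecanase of mouse cartilage, had 45.6, 41.2 and 38.5 CPM in bone GFP+ (hi) libraries, against 13, 12.7 and 8.77 CPM in bone GFP- libraries (log2 fold change 1.86, SE 0.20, adjusted p = 8.0e-05). *Adamts5* had 51.1, 44.7 and 88.1 CPM in chip GFP+ (hi) libraries, against 205, 149 and 274 CPM in chip GFP- libraries (log2 fold change -1.77, SE 0.32, adjusted p = 0.00429). The groups did not overlap in either source. *Adamts5* had 25.5, 46.1 and 44.3 CPM in ESC-OB, against no count in ESC, at least 354-fold higher.

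*Adamts4*, encoding aggrecanase-1, moved in the same directions as *Adamts5*. It had 29.5, 39.4 and 13.6 CPM in bone GFP+ (hi) libraries, against 8.47, 7.66 and 12.5 CPM in bone GFP- libraries (log2 fold change 1.52, SE 0.37, adjusted p = 0.00958). As shares of the unscaled totals these bone groups overlapped. *Adamts4* had 13.2, 8.47 and 20.1 CPM in chip GFP+ (hi) libraries, against 38.3, 30.2 and 31.9 CPM in chip GFP- libraries. The chip value (log2 fold change -1.26, SE 0.29, adjusted p = 0.0117) lost its call without GFP+ (hi) replicate 1 (0.0504). *Adamts4* had 15.2, 53.8 and 49.8 CPM in ESC-OB, against 4.79, 4.55 and 4.19 CPM in ESC (log2 fold change 3.13, SE 0.44, adjusted p = 7.1e-05).

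*Adamts1* was the most abundant proteoglycanase per kilobase in bone GFP+ (hi) cells, at 74.7 CPM per kb, against 37.7 CPM per kb in GFP- cells. It had 372, 383 and 339 CPM in bone GFP+ (hi) libraries, against 159, 173 and 221 CPM in bone GFP- libraries (log2 fold change 0.99, SE 0.16, adjusted p = 0.0012). As shares of the unscaled totals the bone groups overlapped. *Adamts1* had 124, 104 and 185 CPM in chip GFP+ (hi) libraries, against 212, 159 and 296 CPM in chip GFP- libraries. These overlapped without a call (log2 fold change -0.69, SE 0.29, adjusted p = 0.0925), but each GFP+ (hi) library was below the GFP- library of the same number, and the replicate block gave a call (-0.69, adjusted p = 0.0016), as did leaving out GFP+ (hi) replicate 3 (-0.96, adjusted p = 0.0392) or GFP- replicate 2 (-0.89, adjusted p = 0.0212), while the value was -0.41 (adjusted p = 0.274) without GFP- replicate 3. *Adamts1* had 303, 555 and 573 CPM in ESC-OB, or 35155 counts, against 4 counts in ESC (log2 fold change 11.63, SE 0.50, adjusted p = 1.8e-08; 12.35 without ESC replicate 3).

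*Adamts9*, a versican-cleaving enzyme, was higher in all 3 sources. It had 6.09, 16.1 and 8.52 CPM in bone GFP+ (hi) libraries, against 4.51, 2.29 and 3.28 CPM in bone GFP- libraries (log2 fold change 1.60, SE 0.44, adjusted p = 0.0159), a call that ended without GFP+ (hi) replicate 2 (0.078) or GFP- replicate 2 (0.0604). *Adamts9* had 55, 41.3 and 64.7 CPM in chip GFP+ (hi) libraries, against 21.3, 25.6 and 22.4 CPM in chip GFP- libraries (log2 fold change 1.21, SE 0.17, adjusted p = 0.00153). *Adamts9* had 40, 30 and 54.6 CPM in ESC-OB, against 17, 19.3 and 16.1 CPM in ESC (log2 fold change 1.24, SE 0.24, adjusted p = 6.0e-04). The libraries lay apart each time.

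*Adamts15* was the proteoglycanase that rose most in bone chips. It had 17.7, 12.8 and 22.3 CPM in chip GFP+ (hi) libraries, against 0.871, 1.14 and 0.742 CPM in chip GFP- libraries, 19.2-fold higher (log2 fold change 4.26, SE 0.28, adjusted p = 6.7e-05). *Adamts15* had 6.19, 11.2 and 5.59 CPM in bone GFP+ (hi) libraries, against 2.97, 1.14 and 7.84 CPM in bone GFP- libraries. These overlapped (log2 fold change 0.94, SE 0.60, adjusted p = 0.24), through GFP- replicate 3, without which the value was 1.91 (adjusted p = 0.0319), and without GFP- replicate 2 it was 0.51 (adjusted p = 0.485). *Adamts15* had 50.4, 44.7 and 75.1 CPM in ESC-OB, against 2.03, 3.5 and 1.68 CPM in ESC (log2 fold change 4.42, SE 0.32, adjusted p = 4.6e-07).

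*Adamts8* was lower in bone GFP+ (hi) cells, at 0.545, 0.82 and 0.0482 CPM, against 2.64, 2.17 and 7.84 CPM in GFP- cells (log2 fold change -3.17, SE 0.87, adjusted p = 0.0158). The call ended without GFP- replicate 3 (-2.33, adjusted p = 0.103), the GFP- library highest in *Adamts15* too. *Adamts20* was called in the ESC comparison, at 0.967, 4.06 and 3.38 CPM in ESC-OB, against 0.737, 0.166 and 0.419 CPM in ESC (log2 fold change 2.91, SE 0.76, adjusted p = 0.00479; 3.51 without ESC replicate 1 and 2.23 without ESC replicate 2). The chondrocyte markers described above ran in the same direction as the members lower in bone GFP+ (hi) cells. So did 4 of 5 fibroblast and progenitor markers (*Ly6a* at a log2 fold change of -6.41, *Dpt* at -3.95, *Cd34* at -3.70), although their sums, led by *Pdgfra*, which was higher, were 120 to 179 CPM in GFP+ (hi) libraries, against 111 to 194 CPM in GFP- libraries, with none at 0. All 3 B cell markers tested were lower too, at sums of 14.3 to 17.2 CPM in GFP+ (hi) libraries, against 25.5 to 105 CPM in GFP- libraries, with none of the 6 at 0 in either. Of the 3 epithelial markers tested 2 were lower, at sums of 0.957 to 1.44 CPM, against 9.83 to 12.3 CPM, with 2 of the 6 at 0 in GFP+ (hi) cells and none in GFP- cells. The part of these markers in the members lower in bone GFP+ (hi) cells was not tested.

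**Figure D4:**
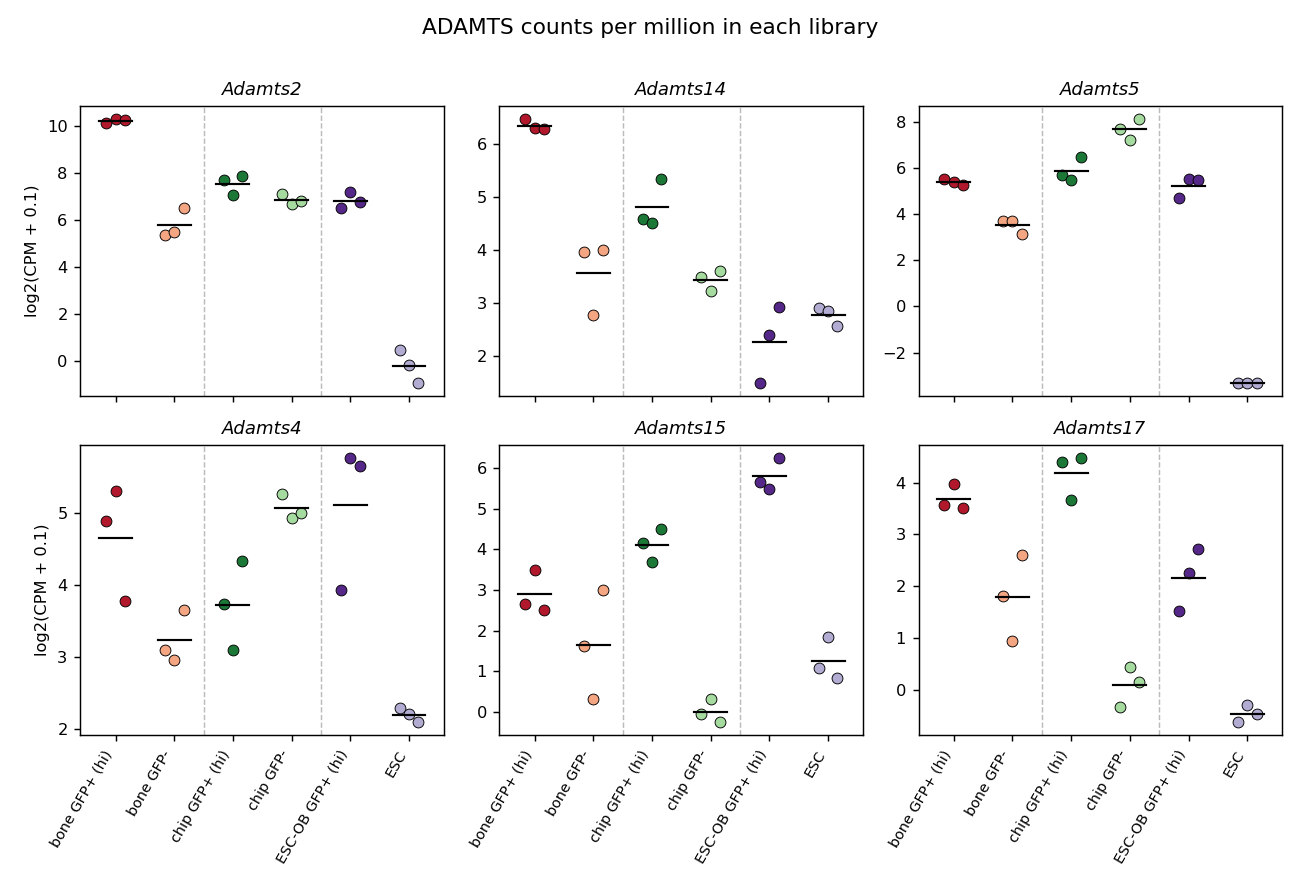
CPM of 6 ADAMTS genes in each of the 18 libraries, as log2(CPM + 0.1), with the mean of each group as a bar and dashed lines between the separately normalized sources. *Adamts4* and *Adamts5* were higher in GFP+ (hi) than GFP- libraries of bone and lower in those of bone chips, *Adamts2* was highest in bone GFP+ (hi) cells, and *Adamts15* and *Adamts17* had under 2 CPM in each chip GFP- library.

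The other ADAMTS genes include enzymes that bind fibrillin microfibrils. *Adamts17*, one of these, was higher in all 3 sources, with its largest fold change in bone chips. It had 20.9, 12.6 and 22 CPM in chip GFP+ (hi) libraries, against 0.697, 1.27 and 1.02 CPM in chip GFP- libraries, 18.1-fold higher (log2 fold change 4.18, SE 0.30, adjusted p = 9.5e-05). *Adamts17* had 11.8, 15.6 and 11.3 CPM in bone GFP+ (hi) libraries, against 3.41, 1.83 and 5.97 CPM in bone GFP- libraries (log2 fold change 1.79, SE 0.40, adjusted p = 0.00611). *Adamts17* had 2.76, 4.66 and 6.52 CPM in ESC-OB, against 0.553, 0.721 and 0.628 CPM in ESC (log2 fold change 2.81, SE 0.50, adjusted p = 3.7e-04). No group overlapped its comparison group. *Adamts10*, its relative, was higher in bone (91.1, 121 and 141 CPM in GFP+ (hi) libraries, against 37.3, 30.1 and 55.7 CPM in GFP- libraries; log2 fold change 1.52, adjusted p = 0.00111) but not called in bone chips (-0.05, SE 0.16, adjusted p = 0.825). In ESC-OB *Adamts10* had 45.2, 98 and 68.9 CPM, against 4.06, 0.943 and 1.68 CPM in ESC (log2 fold change 5.21, SE 0.48, adjusted p = 2.6e-06; 5.93 without ESC replicate 1 and 4.59 without ESC replicate 2).

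*Adamts18* had the largest fold among the ADAMTS genes higher in bone. It had 10, 8.47 and 6.45 CPM in bone GFP+ (hi) libraries, against 0.11, 0.458 and 0 CPM in bone GFP- libraries (log2 fold change 5.40, SE 0.70, adjusted p = 2.6e-04; 7.03 without GFP- replicate 2). *Adamts18* had 6.91, 5.65 and 6.54 CPM in chip GFP+ (hi) libraries, against 3.48, 1.33 and 2.92 CPM in chip GFP- libraries (log2 fold change 1.31, SE 0.33, adjusted p = 0.0179), and lost its call without GFP+ (hi) replicate 1 (0.0634) or replicate 3 (0.051). *Adamts18* had 3.14, 5.25 and 1.89 CPM in ESC-OB, against no count in ESC, at least 31.4-fold higher. Within the separate scalings, the 9 GFP+ (hi) libraries lay between 1.89 and 10 CPM.

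*Adamts12*, which cleaves cartilage oligomeric matrix protein, was called in bone chips and the ESC comparison. It had 147, 110 and 125 CPM in chip GFP+ (hi) libraries, against 44.9, 29.6 and 51.4 CPM in chip GFP- libraries (log2 fold change 1.60, SE 0.22, adjusted p = 0.00123). *Adamts12* had 2.82, 4.58 and 0.0482 CPM in bone GFP+ (hi) libraries, against 1.43, 1.26 and 3.63 CPM in bone GFP- libraries, with replicate 3 of the GFP+ (hi) cells again the lowest (log2 fold change 0.23, adjusted p = 0.88). Over the alternatives run the bone value of *Adamts12* lay between -0.52 and 0.89, with no call. *Adamts12* had 3.32, 7.67 and 5.51 CPM in ESC-OB, against no count in ESC, at least 49.8-fold higher.

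*Adamts6* rose in bone chips too. It had 19.4, 20.5 and 22.6 CPM in chip GFP+ (hi) libraries, against 4.09, 4.06 and 2.88 CPM in chip GFP- libraries (log2 fold change 2.51, SE 0.17, adjusted p = 7.1e-05). *Adamts6* had 3.49, 5.47 and 4.29 CPM in bone GFP+ (hi) libraries, against 1.65, 3.43 and 4.68 CPM in bone GFP- libraries, which overlapped (log2 fold change 0.44, adjusted p = 0.477). *Adamts6* had 3.56, 4.06 and 4.83 CPM in ESC-OB, or 312 counts, against 2 counts in ESC, a ratio of 58.1 (95% counting interval 16 to 482; adjusted p = 2.1e-05).

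*Adamts16* was absent from the counts of bone GFP+ (hi) cells, which had 0 of them in 3 libraries, against 3.85, 4.8 and 2.81 CPM, or 101 counts, in bone GFP- libraries. GFP+ (hi) cells were at least 85-fold lower (adjusted p = 2.8e-04). *Adamts19*, which was too low to test, likewise had 0 counts in bone GFP+ (hi) cells, against 23 in GFP- cells. *Adamts7* was higher in bone GFP+ (hi) cells, at 8.94, 13.9 and 8.52 CPM, against 4.73, 2.4 and 2.11 CPM in GFP- cells (log2 fold change 1.75, SE 0.39, adjusted p = 0.00615). In ESC-OB *Adamts7* was the single ADAMTS gene called lower, at 4.84, 5.07 and 6.76 CPM, against 10.9, 8.66 and 7.96 CPM in ESC (log2 fold change -0.72, SE 0.30, adjusted p = 0.0444), and that call ended without any 1 of ESC-OB replicates 1 and 2 (0.124 and 0.109) and ESC replicates 1, 2 and 3 (0.127, 0.0818 and 0.0576). *Adamts13*, which cleaves von Willebrand factor, was higher in ESC-OB at a low level (1.14, 2.42 and 1.81 CPM, against 0.553, 0.444 and 0.209 CPM in ESC; log2 fold change 2.08, adjusted p = 0.00616).

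Of the 38 members tested in all 3 sources, 8 (21.1%) were higher in each: *Adam10*, *Adam12*, *Adam15*, *Adamts2*, *Adamts9*, *Adamts17*, *Adamts18* and *Mmp16*. Among all 11623 genes tested in the 3 sources, 4.82% were. None was lower in all 3, where 3.09% of all genes were. Another 4 (*Timp3*, *Mmp3*, *Mmp19* and *Adam33*) were lower in GFP+ (hi) cells of bone and chips and higher in ESC-OB. The share of all genes with that mixed pattern was not counted. Each of the 8 other than *Adam10*, *Adam12* and *Adamts17* lost its call in bone or in bone chips when 1 library was left out, as given above. In bone the unscaled shares of *Adam15* ran the other way, and those of *Adamts9* and *Adamts17* overlapped between groups. At the other end, 11 of the 68 members had too few counts to be tested in any source.

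Whether the GFP effect itself differed between fresh bone and culture was tested in 1 fit of the 12 libraries. Of 47 members tested, the effect was higher in bone than in bone chips for 19 and lower for 5 (adjusted p under 0.05), where 14.7% and 15.6% of all 13574 genes were. *Adamts5* had the smallest adjusted p. Its effect was 3.64 log2 units higher in bone than in chips (SE 0.40, adjusted p = 2.8e-05). For *Mmp23* the difference of the effects was 2.65 (SE 0.29, adjusted p = 3.0e-05), and for *Adamts2* it was 3.64 (SE 0.41, adjusted p = 3.1e-05). *Adam10* (1.60, adjusted p = 4.0e-05), *Mmp16* (3.30, adjusted p = 4.2e-05) and *Mmp14* (1.78, adjusted p = 1.9e-04) followed. Among the 19, *Mmp14*, *Adam19*, *Adamts4* and *Adamts5* were higher in bone GFP+ (hi) cells and lower in chip GFP+ (hi) cells, each call made in its own source, and no member had the reverse pattern. The share of all genes with either pattern was not counted. As shares of the unscaled totals, the bone groups of *Mmp14*, *Adam19* and *Adamts4* overlapped.

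The 5 members with the lower effect in bone were all ADAMTS genes. The difference was -3.32 for *Adamts15* (SE 0.75, adjusted p = 0.00523; -2.31 without bone GFP- replicate 3), -2.39 for *Adamts17* (SE 0.53, adjusted p = 0.00469; -1.81 without the same library) and -2.08 for *Adamts6* (SE 0.45, adjusted p = 0.0038). *Adamts16* rests on 0 counts in bone GFP+ (hi) cells and on 6 and 21 counts in chip GFP+ (hi) and GFP- cells. *Adamts3* (-1.25, adjusted p = 0.0388) lost its call in 9 of the 12 fits that left out 1 library, at adjusted p-values of 0.0512 to 0.0992. Not called were *Adam12* (-0.23, SE 0.36, adjusted p = 0.665), *Mmp13* (-0.41, SE 0.70, adjusted p = 0.699), *Timp3* (-0.76, SE 0.54, adjusted p = 0.314) and *Mmp3* (1.70, SE 0.86, adjusted p = 0.156; 2.21 and 0.0366 without bone GFP+ (hi) replicate 3, 0.86 and 0.461 without bone GFP+ (hi) replicate 2). Source, culture and animals differ together between these tables and cannot be told apart.

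**Figure D5:**
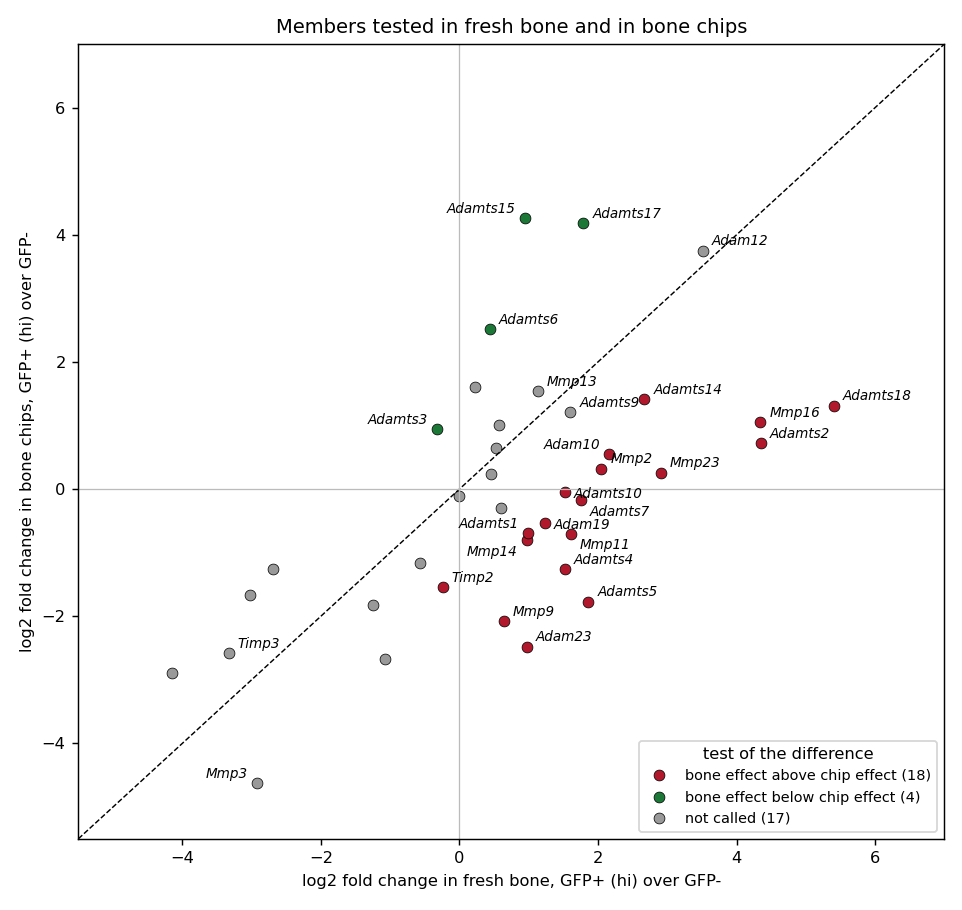
Log2 fold change of GFP+ (hi) over GFP- cells in fresh bone (horizontal) and in bone chips (vertical) for the 39 members tested in both, with equal effects on the dashed line. Colour gives the test of the difference: 18 members lay below the line with a higher effect in bone, 4 above it, and 17 were not called. *Adam12* lay near the line.

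Genes that switch these proteinases on or hold them back were read from a list of 22 activators and regulators. Bone GFP+ (hi) cells had 8 higher and 6 lower among 20 tested (median log2 fold change 0.20), and chip GFP+ (hi) cells had 7 higher and 5 lower among 19 tested (0.26). ESC-OB had 16 higher and 1 lower among 20 tested (2.11). For comparison with these and the other list counts, 19.5% of all genes tested were higher and 22.1% lower in bone. The shares were 20.4% and 23.1% in bone chips, and 43.0% and 34.7% in the ESC comparison. *Pcsk5*, a proprotein convertase that can release prodomains, had 214, 223 and 234 CPM in bone GFP+ (hi) libraries, against 9.35, 8.35 and 13.5 CPM in bone GFP- libraries (log2 fold change 4.43, SE 0.21, adjusted p = 5.3e-07). *Tspan15*, a tetraspanin that steers ADAM10, had 0.16, 0.683 and 0 CPM in bone GFP+ (hi) libraries, against 32.2, 47 and 18.8 CPM in bone GFP- libraries (log2 fold change -7.07, SE 0.70, adjusted p = 5.0e-05). *A2m*, encoding the trapping inhibitor alpha-2-macroglobulin, had 2.98, 0.273 and 0.0482 CPM in bone GFP+ (hi) libraries, against 17.7, 21.2 and 26.1 CPM in bone GFP- libraries (log2 fold change -4.14, SE 0.86, adjusted p = 0.00411). All bone GFP+ (hi) libraries were on one side of the GFP- libraries for each of these.

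In bone chips *Pcsk6* had 1080, 1040 and 1220 CPM in GFP+ (hi) libraries, against 42.9, 58.7 and 39.6 CPM in GFP- libraries (log2 fold change 4.56, SE 0.19, adjusted p = 2.0e-05). *Plat*, encoding tissue plasminogen activator, had 13.1, 10.3 and 15.2 CPM in chip GFP+ (hi) libraries, against 133, 79.5 and 132 CPM in chip GFP- libraries (log2 fold change -3.16, SE 0.25, adjusted p = 1.3e-04). Plasmin made by this enzyme can activate several pro-MMPs. *Serpine2*, a plasminogen activator inhibitor also called protease nexin-1, had 2090, 1900 and 1970 CPM in chip GFP+ (hi) libraries, against 406, 381 and 576 CPM in chip GFP- libraries (log2 fold change 2.13, SE 0.18, adjusted p = 1.6e-04). In ESC-OB *Plat* had 838, 346 and 469 CPM, against 0.737, 0.777 and 0 CPM in ESC (log2 fold change 9.79, SE 0.54, adjusted p = 7.0e-08).

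Of the ADAMTS-like genes, which share the ancillary domains but have no protease domain, 0 of 6 tested were higher and 2 lower in bone (median log2 fold change -0.35). Among all genes tested in bone, 19.5% were higher and 22.1% lower. In bone chips 3 of 6 were higher and 2 lower (0.77), and in ESC-OB 7 of 7 were higher (6.34), where 43.0% of all genes tested were. *Adamtsl1* had 153, 161 and 134 CPM in chip GFP+ (hi) libraries, against 10.7, 13.5 and 7.93 CPM in chip GFP- libraries (log2 fold change 3.81, SE 0.21, adjusted p = 3.7e-05). *Adamtsl3* was lower in GFP+ (hi) cells of bone (log2 fold change -2.56, adjusted p = 0.0122) and of bone chips (-2.09, adjusted p = 5.6e-04).

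The list of 8 proteoglycan and matrix substrates gave 2 higher and 3 lower among 7 tested in bone GFP+ (hi) cells (median log2 fold change 0.14). Chip GFP+ (hi) cells also had 2 higher and 3 lower among 7 tested (-0.06), while ESC-OB had 4 higher and 2 lower among 8 tested (1.55). *Acan*, encoding aggrecan and also one of the chondrocyte markers, had 34.8, 22.9 and 10.6 CPM in bone GFP+ (hi) libraries, against 2040, 2010 and 3120 CPM in bone GFP- libraries (log2 fold change -6.71, SE 0.47, adjusted p = 5.7e-06). In bone chips it was higher in GFP+ (hi) cells, at 554, 971 and 434 CPM, against 328, 269 and 299 CPM in GFP- cells (log2 fold change 1.13, SE 0.29, adjusted p = 0.0179). *Bcan*, encoding brevican, had 123, 123 and 111 CPM in bone GFP+ (hi) libraries, against 1.43, 1.26 and 4.91 CPM in bone GFP- libraries (log2 fold change 5.56, SE 0.41, adjusted p = 7.9e-06). *Vcan*, encoding versican, had 20.1, 18.3 and 21 CPM in chip GFP+ (hi) libraries, against 161, 118 and 165 CPM in chip GFP- libraries (log2 fold change -2.90, SE 0.15, adjusted p = 3.4e-05). The fibroblast and progenitor markers ran the same way in bone chips, where 5 of 5 were lower in GFP+ (hi) cells, with summed levels of 207 to 237 CPM in GFP+ (hi) libraries, against 511 to 869 CPM in GFP- libraries and none at 0. Their part in the members lower in chip GFP+ (hi) cells was not tested.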

How the data were processed

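Gene counts were analysed as deposited, in 1 table per source. Per the submitters' processing notes, the authors used the mm9 build, the aligner STAR (version 2.4.2a) and DESeq2 in R 3.2.2. The counting tool and its strand setting are not given in the sources used here.

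Each source was fitted separately with edgeR 4.0.16 in R 4.3.3 (filterByExpr with a minimum count of 10, TMM factors, two-sided quasi-likelihood test, Benjamini-Hochberg adjustment over all genes tested). CPM are TMM-scaled, and levels between genes were divided by transcript length. SE was the absolute log2 fold change divided by the square root of F. The interaction was fitted over the 12 bone and chip libraries. Against a group at 0 counts, a fold was bounded with 3 counts over the group. Intervals and bounds cover counting error only. The fits were run on simulated counts with a fixed spread and a mean profile shared by the groups. These held no shift in composition like that of *Col1a1* and no outlying library, so they do not test those cases.

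Members and lists were chosen with earlier results of these data known. Values in every library were given for each TIMP, each member called one way in all 3 sources, up to 3 called members per role and source with the largest fold, no overlap and a mean of at least 1 CPM, and up to 6 members by interaction p. Lists had up to 3 examples by that rule. *Mmp8*, *Mmp12*, *Adam1a*, *Adam17* and other members outside the rule were named after their values were seen.

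Same-numbered chip libraries deviated together (correlations of residuals 0.158, 0.329 and 0.396), so these numbers may pair the samples, which the labels do not state. The main fits of bone chips and of the interaction left this possible pairing out, and the replicate block was run as an alternative. Same-numbered bone (-0.0125, -0.0217 and 0.0305) and ESC libraries (-0.0129, -0.000703 and -0.015) did not deviate together. Alternatives were DESeq2 1.42.0, RLE factors, other filters, a log2 threshold of 1, removal of *Col1a1*, *Col1a2* and *Rn45s*, the replicate block and leaving out each library.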

Additional observations from a re-analysis of the deposited data

Results flagged for a closer look

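The GFP effect (GFP+ (hi) over GFP- cells) differed between fresh bone and bone chips for the members below, by the interaction test in edgeR (adjusted p under 0.05). The values are the bone effect minus the chip effect on the log2 scale. It was above 0 for *Adamts5* (3.64), *Adamts2* (3.64), *Mmp16* (3.30), *Mmp23* (2.65), *Adam10* (1.60), *Mmp14* (1.78), *Mmp2* (1.73), *Timp2* (1.30), *Adamts4* (2.79), *Adamts1* (1.68) and *Adamts18* (4.10, and 5.81 without bone GFP- replicate 2). Also above 0 were *Adam19* (1.77), *Adamts10* (1.57) and *Adamts7* (1.92, with adjusted p = 0.0764 without chip GFP+ (hi) replicate 2).

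Values above 0 that rest on few counts or on single libraries were those of *Adam23* (3.47, and 2.82 without bone GFP+ (hi) replicate 1), *Mmp11* (2.32, and between 1.65 and 2.92 without one of bone GFP+ (hi) replicate 3 and bone GFP- replicate 3), *Mmp9* (2.71, with adjusted p = 0.0555 without bone GFP+ (hi) replicate 2 and 0.0609 without chip GFP+ (hi) replicate 1) and *Adamts14* (1.26, with adjusted p of 0.0507 to 0.0814 without any 1 of 5 libraries). *Adam5* (7.23, and 6.35 without bone GFP+ (hi) replicate 2) had 9 counts in bone GFP+ (hi) cells and 0 in bone GFP- cells, so its fitted value depends on the prior count.

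The difference was below 0 for *Adamts6* (-2.08), *Adamts17* (-2.39, and -1.81 without bone GFP- replicate 3), *Adamts15* (-3.32, and -2.31 without the same library) and *Adamts3* (-1.25). *Adamts16* (-7.80, and -6.94 without chip GFP+ (hi) replicate 3) had no count in bone GFP+ (hi) cells, and its fitted value is likewise no bound.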

How the results depend on the processing

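Of the calls on members, 21 of 27 in bone, 22 of 31 in bone chips, 39 of 45 in the ESC comparison and 20 of 24 for the interaction were made under every alternative other than a log2 threshold of 1, and no called value changed sign. With that threshold 16 members were called higher and 7 lower in bone, 10 and 14 in bone chips and 38 and 5 in the ESC comparison. When 1 library was left out, the members called higher in bone chips numbered 9 to 14 and those called lower in ESC-OB 3 to 6. Over all settings bone had 16 to 21 higher and 5 to 10 lower. The threshold left 1601 genes of the whole table called higher in bone in place of 2455, and 1087 higher and 1603 lower in bone chips in place of 2614 and 2967. DESeq2 moved the median of all genes in bone by -0.11. With the replicate block, *Mmp2*, *Adamts1* and *Adamts3* gained a call and *Adam1a* lost one in bone chips, as given in the report. In bone and the ESC comparison same-numbered libraries did not deviate together. There the block ended the calls of *Timp1* (0.45, adjusted p = 0.0537), *Adamts8* (-3.08, adjusted p = 0.0631), *Mmp19* (-2.98, adjusted p = 0.0891) and *Adamts7* in ESC-OB (-0.73, adjusted p = 0.0616). The block gave a call for *Mmp11* in bone (1.59, adjusted p = 0.0397). Members with a few counts in one group are limited by depth, which was lowest in ESC replicates 1 and 3 and the bone GFP- libraries.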
